A study of Mus musculus with 2 samples.

Results

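The genes described here serve iron uptake, iron storage and the making and breakdown of heme in mouse hematopoietic stem cells kept in culture. They are 10 genes of 32285 in the deposited matrices, taken by symbol in both libraries: Tfrc, Slc11a2, Fth1, Ftl1, Alas1, Cpox, Fech, Hmox1, Blvra and Blvrb. Both groups were suspension cultures of 48 h, one with RO-3066 and the other with DMSO (dimethyl sulfoxide, the solvent control), read by droplet sequencing of transcript 3' ends. With 1 library per treatment, the differences have no replicate check, and no test across samples was possible. The labels give blood as the source and state no strain, age, genotype or dose, and they name the compound only by its code. By its title, the study concerns DNA damage in the path to megakaryocytes, from which platelets bud. Single-cell counts of this kind cannot tell fewer transcripts per cell from a changed mix of cells except where classes of cells are compared.

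Cells take up iron bound to transferrin through the transferrin receptor, carry it out of endosomes with the divalent metal transporter, and store what is not used in ferritin, a shell of heavy and light chains. Heme is built in a chain of enzymes that begins and ends in the mitochondrion, and it is opened by heme oxygenase to biliverdin, iron and carbon monoxide, after which biliverdin reductases make bilirubin. In low iron, iron regulatory proteins bind a short hairpin, the iron responsive element. At the front of ferritin transcripts this binding holds back translation, and in the tail of the Tfrc transcript it protects the RNA from decay. Demand for iron is greatest in red cell precursors, which share their progenitors with megakaryocytes.

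The hairpins are shown because they lie in the transferrin receptor and ferritin transcripts, among the members at issue. They were found by letters in the untranslated regions of the GENCODE vM21 transcripts (GRCm38, which is mm10), on the transcript strand only, as a C, 5 bases of any kind and the loop CAGTGN, followed by 5 bases that pair with those before the loop, with G-T pairs allowed and no G at the end of the loop. Each is printed 5′ to 3′ with the 6 loop bases in capitals.
Tfrc 3′ UTR, chr16:32631220-32631247, plus strand: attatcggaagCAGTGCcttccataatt
Tfrc 3′ UTR, chr16:32631599-32631626, plus strand: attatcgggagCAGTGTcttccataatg
Tfrc 3′ UTR, chr16:32631664-32631691, plus strand: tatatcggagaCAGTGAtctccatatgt
Tfrc 3′ UTR, chr16:32631711-32631738, plus strand: attatcgggaaCAGTGTttcccataatt
Fth1 5′ UTR, chr19:9982733-9982760, plus strand: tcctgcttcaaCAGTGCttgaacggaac
Ftl1 5′ UTR, chr7:45459779-45459806, minus strand: tcttgcttcaaCAGTGTttgaacggaac
The letters and pairing were met in the 5′ UTR of 0.112% of 20597 genes and in the 3′ UTR of 0.477% of 20979 genes. Transcripts of all 10 members were searched, and only the sites above are listed. The search allowed no bulge among the 5 pairs. Sites that cross an exon join were not listed, and neither was any site of Fech. A member without a listed site may therefore still hold the element. A match is a description of the sequence. The counts below measure transcripts, and neither binding nor translation was measured.

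After filtering, 3683 RO-3066 cells had a median of 34760 UMIs (unique molecular identifiers, the tags by which captured transcripts are counted) and 5833 DMSO cells a median of 23972. The libraries share 7 barcodes, and no log2 ratio of a member moved beyond its counting interval without them. Of the 12 genes listed as markers of hematopoietic stem cells, 11 reached a mean of 5 CPM (UMIs of a gene per 1000000 UMIs of the kept cells) over the libraries. Of those 11, 7 were above and 4 below a log2 ratio of 0, with Kit at 102 CPM in RO-3066 and 68.7 CPM in DMSO and Ly6a at 14.1 CPM in RO-3066 and 20.7 CPM in DMSO. Of the 13 megakaryocyte markers 11 did, with Pf4 at 4215 CPM in RO-3066 and 5131 CPM in DMSO. Intervals are 95% exact intervals for counting error only.

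The clearest differences between the libraries were a lower transferrin receptor, a higher ferritin light chain and a higher biliverdin reductase B in RO-3066. Of the 10 members, 9 had a mean of at least 5 CPM. Of these, Ftl1 and Blvrb were at least 1.5-fold higher in RO-3066, Tfrc was at least 1.5-fold lower, and Slc11a2, Fth1, Alas1, Cpox, Fech and Blvra lay between. Over all 9083 genes at that level, 4.6% were past 1.5-fold upward in RO-3066 and 2.0% past it downward. The median log2 ratio (of CPM plus 1, RO-3066 over DMSO) was 0.12 over the 9 members and -0.01 over all genes.

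**Figure D1:**
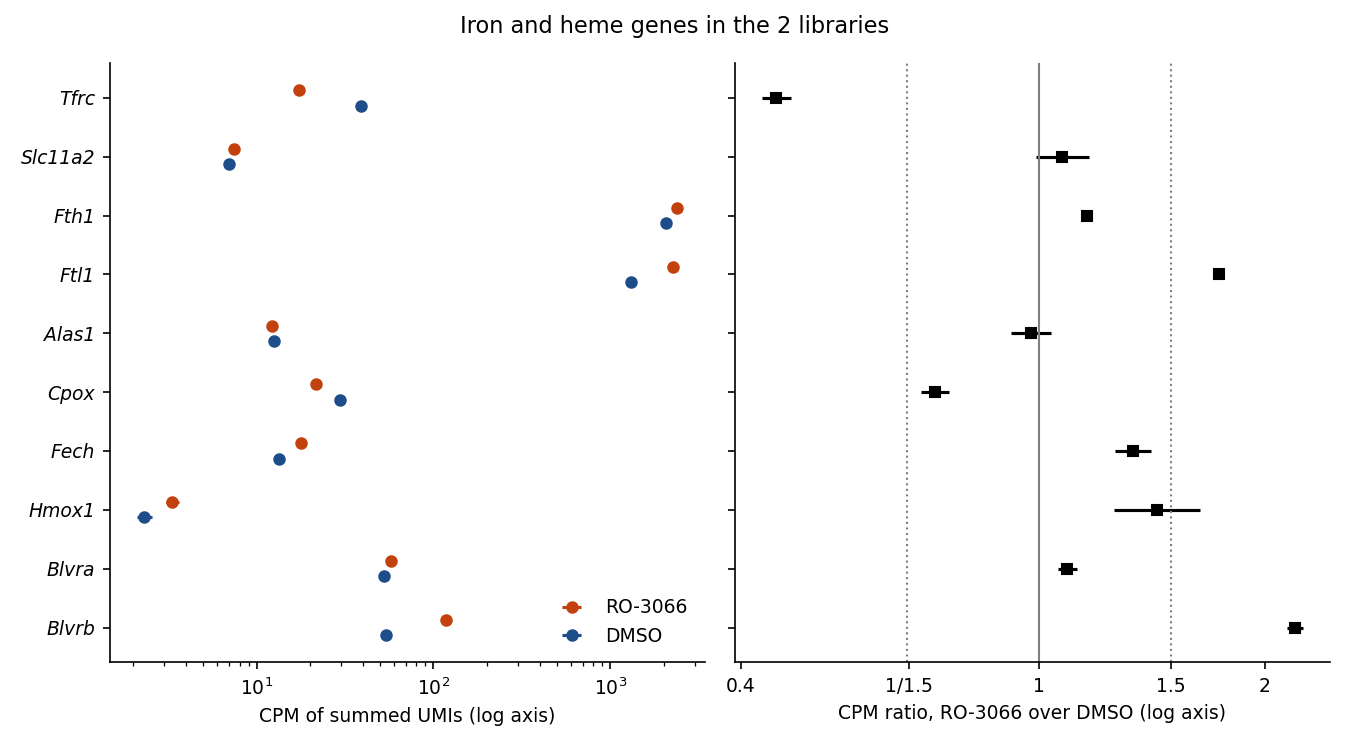
The left panel plots each gene's level in CPM on a log axis in RO-3066 and in DMSO, and the right panel the ratio of RO-3066 over DMSO on a log axis, with bars for 95% counting intervals and dotted lines at 1.5-fold. Tfrc lies at 0.446 and Blvrb at 2.19, and Slc11a2 and Alas1 cross 1.

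Iron uptake was represented by a pair of genes that did not share a direction. Tfrc, the transferrin receptor (chromosome 16, 32608920 to 32632794), was at 17.4 CPM in RO-3066 and 39.1 CPM in DMSO, a ratio of 0.446 (0.427 to 0.466). Its log2 ratio of -1.12 was lower than that of all but 0.352% of the genes compared. With each cell thinned to 10000 UMIs, 14.4% of RO-3066 cells (13.2 to 15.6) and 23.5% of DMSO cells (22.4 to 24.6) had a Tfrc UMI. Thinned cells had a mean of 0.164 Tfrc UMIs in RO-3066 and 0.294 in DMSO, and at such means the share follows the level. The share therefore cannot tell fewer cells with the transcript from fewer transcripts per cell. Slc11a2, the divalent metal transporter that moves iron out of endosomes (chromosome 15, 100387898 to 100425072), was at 7.46 CPM in RO-3066 and 6.94 CPM in DMSO, and the interval of the ratio, 0.992 to 1.16, includes 1.

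The storage genes were higher to unequal degrees. Ftl1, the ferritin light chain (chromosome 7, 45457944 to 45459884), was at 2265 CPM in RO-3066 and 1301 CPM in DMSO, 1.74-fold higher (1.73 to 1.75). Fth1, the heavy chain that oxidises iron for storage (chromosome 19, 9980598 to 9985098), was at 2391 CPM in RO-3066 and 2063 CPM in DMSO, 1.16-fold higher. The balance of the chains differed too, with 0.947 Ftl1 UMIs per Fth1 UMI in RO-3066 (0.943 to 0.952) and 0.631 in DMSO (0.628 to 0.634). Both chains together took 0.466% of all UMIs in RO-3066 and 0.336% in DMSO, and per Tfrc UMI there were 267 ferritin UMIs in RO-3066 and 86.0 in DMSO.

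The ferritin difference ran through the whole range of cells. In single cells Ftl1 had a median of 20.3 UMIs per 10000 in RO-3066, with 80% of cells between 13.2 and 32.8, and a median of 12.0 in DMSO, with 80% of cells between 7.71 and 18.8. The lower end of that RO-3066 range thus lay above the DMSO median. For Fth1 the medians were 24.1 in RO-3066 and 20.9 in DMSO, and the ranges lay largely over each other. A processed copy of the light chain, Ftl1-ps1, had 36.2 CPM in RO-3066 and 21.6 CPM in DMSO (1.67-fold). Reads of near-identical copies can be split between them by the counting, so the Ftl1 and Ftl1-ps1 values are uncertain in the same way.

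The heme synthesis genes lay on both sides. Alas1, the enzyme of the first step outside red cells (chromosome 9, 106233455 to 106248654), was at 12.2 CPM in RO-3066 and 12.5 CPM in DMSO, and its interval of 0.917 to 1.04 includes 1. Cpox, coproporphyrinogen oxidase of a late step (chromosome 16, 58670292 to 58717636), was at 21.5 CPM in RO-3066 and 29.7 CPM in DMSO, a ratio of 0.726 (0.695 to 0.757). Fech, ferrochelatase, which sets iron into the ring, had 17.9 CPM in RO-3066 and 13.4 CPM in DMSO, 1.34-fold higher (1.26 to 1.41). Of these late enzymes Cpox was thus lower and Fech higher in the RO-3066 library, neither by 1.5-fold.

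Of the breakdown genes, biliverdin reductase B stood out. Blvrb, which reduces biliverdin and flavins (chromosome 7, 27447978 to 27466144), was at 118 CPM in RO-3066 and 53.7 CPM in DMSO, 2.19-fold higher (2.14 to 2.25), above 99.3% of the genes compared. Blvra, the reductase for the main adult form of biliverdin (chromosome 2, 127070665 to 127097084), was at 57.4 CPM in RO-3066 and 52.7 CPM in DMSO, and its share of thinned cells with a UMI, 39.1% in RO-3066 and 40.3% in DMSO, goes the other way, so no order is read from it. Per Blvra UMI there were 2.05 Blvrb UMIs in RO-3066 (2.0003 to 2.10) and 1.02 in DMSO (0.99 to 1.05). Hmox1, the inducible heme oxygenase (chromosome 8, 75093621 to 75100589), was below the level set for comparison, at 3.33 CPM in RO-3066 and 2.32 CPM in DMSO (1.44-fold, 1.26 to 1.64).

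**Figure D2:**
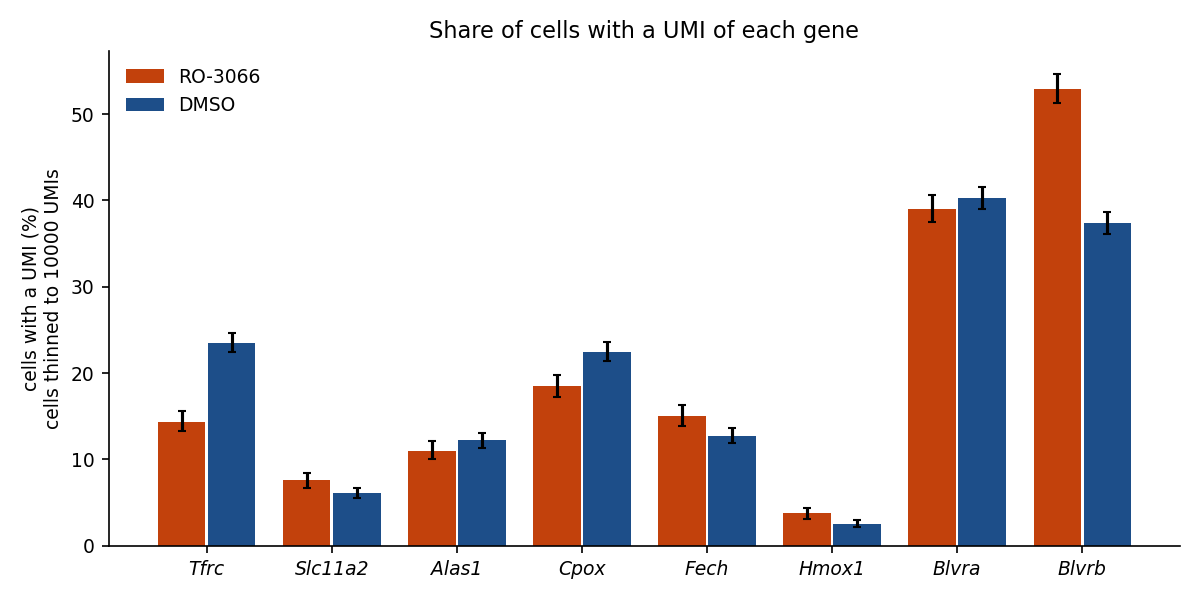
Bars give the percentage of cells with at least 1 UMI of each gene after every cell was thinned to 10000 UMIs, with 95% exact intervals, for 3559 RO-3066 and 5751 DMSO cells. Blvrb stands at 53.0% in RO-3066 and 37.4% in DMSO, and Tfrc at 14.4% and 23.5% in the same order.

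Shares of cells followed the levels for most members. At 10000 UMIs per cell, which left out 124 RO-3066 and 82 DMSO cells as too shallow, Blvrb was seen in 53.0% of RO-3066 cells (51.3 to 54.6) and 37.4% of DMSO cells (36.2 to 38.7). Fech was seen in 15.0% and Hmox1 in 3.74% of RO-3066 cells, against 12.7% and 2.54% of DMSO cells. Cpox, with 18.5% of RO-3066 and 22.5% of DMSO cells, was the other gene beside Tfrc with a lower share and intervals that do not overlap. The intervals of Slc11a2 (7.56% in RO-3066 and 6.09% in DMSO) and Alas1 (11.0% and 12.2%) overlap. Without thinning, the deeper RO-3066 cells gave shares of 40.5% for Tfrc, 82.4% for Blvrb and 50.5% for Cpox, and DMSO cells 45.9%, 64.5% and 47.1%. Ferritin UMIs were in nearly every thinned cell of both libraries. No class of cells known to lack these genes was at hand, so a share here is not corrected for RNA free in the droplets.

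The levels were then followed by the share of a cell's UMIs that came from Pf4, platelet factor 4, which marks the megakaryocyte path. Limits at 0.018%, 0.0461% and 0.228% cut the cells of both libraries together into 4 equal classes. These held 1156, 930, 801 and 796 RO-3066 cells from low to high Pf4, and 1223, 1449, 1578 and 1583 DMSO cells. Cells of the highest class held more UMIs, with a median of 77134 in RO-3066 and 32451 in DMSO, against 24958 and 21491 in the lowest class.

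Tfrc and Cpox climbed with Pf4 in DMSO more than in RO-3066. From low to high Pf4, Tfrc had 17.1, 13.6, 15.0 and 20.5 CPM in RO-3066, and 25.03, 24.1, 28.2 and 56.7 CPM in DMSO. The highest class was 1.20-fold the lowest in RO-3066 (1.08 to 1.33) and 2.27-fold in DMSO (2.09 to 2.46). The ratio of RO-3066 over DMSO was accordingly 0.684 in the lowest and 0.362 in the highest class. Cpox had 17.9, 16.9, 23.2 and 24.3 CPM in RO-3066, and 20.7, 19.9, 26.1 and 39.3 CPM in DMSO, so that the libraries lay closest in the first 3 classes.

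Blvrb had the opposite pattern, with the steeper climb in RO-3066. Its levels from low to high Pf4 were 65.5, 65.1, 85.9 and 181 CPM in RO-3066, and 38.6, 38.8, 45.6 and 70.1 CPM in DMSO. The highest class was 2.77-fold the lowest in RO-3066 (2.64 to 2.90) and 1.82-fold in DMSO (1.70 to 1.94). The ratio between the libraries was 1.70 in the lowest class and 2.59 in the highest. In the highest class 72.2% of thinned RO-3066 cells and 47.9% of thinned DMSO cells had a Blvrb UMI. Blvra moved less, from the lowest to the highest class 1.28-fold in RO-3066 and 1.17-fold in DMSO.

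The ferritin chains parted along Pf4 in both libraries. Ftl1 was highest in the highest class, with 2596 CPM in RO-3066 and 1415 CPM in DMSO, while Fth1 there had 2258 CPM in RO-3066 and 1859 CPM in DMSO, below the 2659 and 2252 CPM of the lowest class. Ftl1 UMIs per Fth1 UMI were 0.799, 0.794, 0.859 and 1.15 from low to high Pf4 in RO-3066, and 0.548, 0.544, 0.555 and 0.761 in DMSO. Ftl1 was higher in RO-3066 within each of the 4 classes, by 1.60-fold to 1.83-fold, and Fth1 by 1.03-fold to 1.21-fold. Hmox1 was lower toward high Pf4 in RO-3066, with 5.09, 4.84, 2.58 and 2.28 CPM, against 2.32, 2.73, 3.24 and 1.65 CPM in DMSO.

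**Figure D3:**
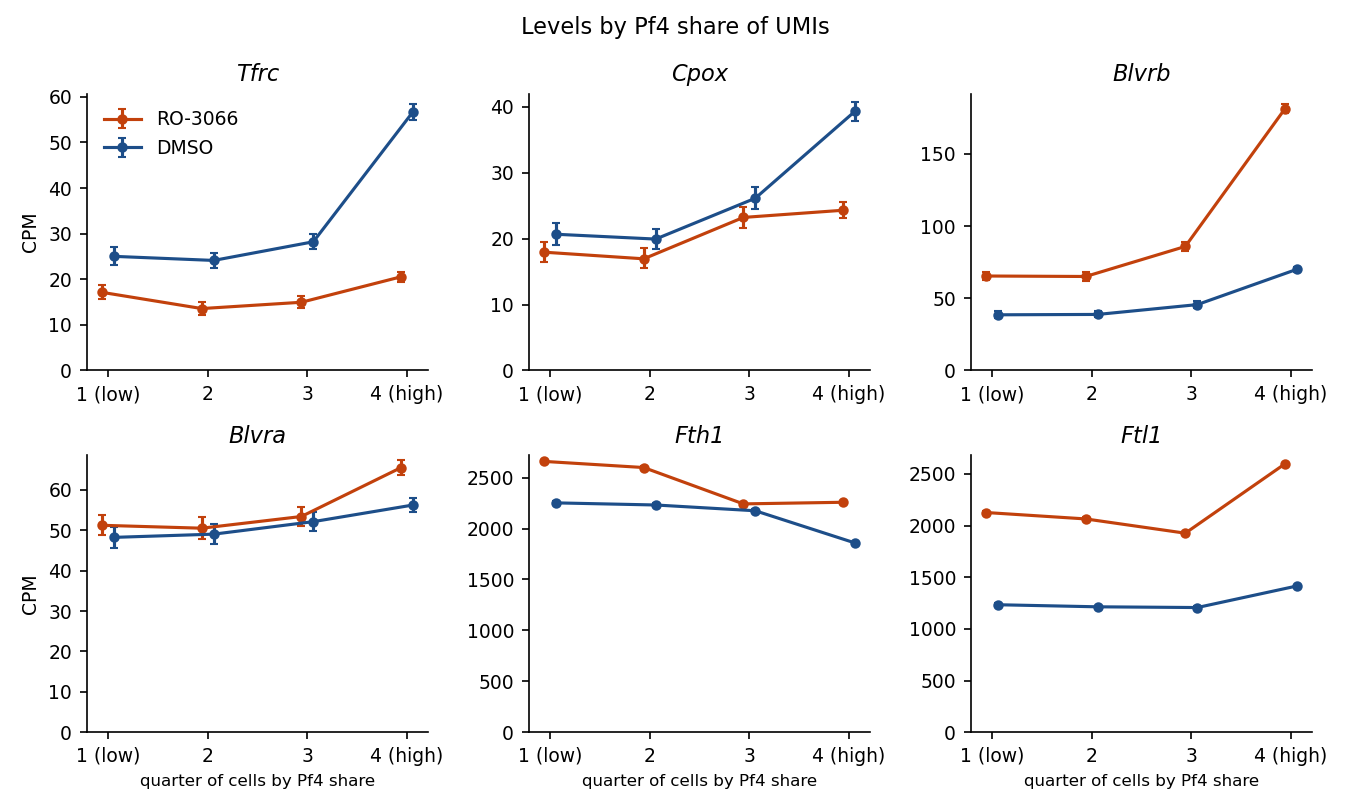
Each panel plots the level of a gene in CPM over the 4 classes of cells from low to high Pf4 share, in RO-3066 and in DMSO, with bars for 95% counting intervals. Tfrc is at 20.5 CPM in the highest RO-3066 class and 56.7 CPM in that of DMSO, and Blvrb reaches 181 CPM in RO-3066 and 70.1 in DMSO.

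Counted by 1.5-fold between the highest and the lowest Pf4 class, 1 member (Blvrb) was higher in RO-3066, where 8.27% of all genes compared were higher and 11.7% lower. In DMSO, 3 members (Tfrc, Cpox and Blvrb) were higher, where 7.68% of all genes were higher and 10.9% lower. No member with a mean of 5 CPM was 1.5-fold lower in either library. Slc11a2 and Fech were at 1.25-fold each in RO-3066 and at 1.27-fold and 1.21-fold in DMSO, and Alas1 was at 1.09-fold in RO-3066 and 0.886-fold in DMSO, with intervals that include 1.

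Proliferation was followed by the summed level of Mki67 and Top2a, both transcribed mostly in G2 and M phase. Limits at 300.3, 640.0 and 1173 CPM cut the cells into 4 equal classes, with 617, 1304, 1003 and 759 RO-3066 cells and 1762, 1075, 1376 and 1620 DMSO cells from low to high. Tfrc was higher in more proliferative RO-3066 cells, with 12.3, 14.7, 21.8 and 22.6 CPM, while DMSO cells had 37.1, 48.8, 35.5 and 37.8 CPM with no order. The highest over the lowest class was 1.83 in RO-3066 (1.58 to 2.13) and 1.02 in DMSO (0.953 to 1.09). Cpox had 17.9, 19.95, 22.9 and 27.4 CPM in RO-3066 and 26.1, 32.2, 29.4 and 31.0 CPM in DMSO.

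In summed UMIs, Blvrb, Ftl1 and Hmox1 were lower in the more proliferative cells of RO-3066. Blvrb had 136, 138, 101 and 69.9 CPM in RO-3066, against 52.5, 58.5, 53.9 and 51.6 CPM in DMSO, so the decline was seen in RO-3066 and the ratio between the libraries ran from 2.59 in the lowest class to 1.35 in the highest. The share of thinned cells with a Blvrb UMI changed less. It was 51.7%, 59.1%, 50.9% and 45.8% in RO-3066, and 36.4%, 39.5%, 39.5% and 35.4% in DMSO. In RO-3066 the intervals of the lowest (47.6 to 55.9) and the highest class (42.1 to 49.5) overlap. Ftl1 had 2739, 2414, 2027 and 1804 CPM in RO-3066, and 1509, 1342, 1294 and 1145 CPM in DMSO. Hmox1 had 5.77, 3.29, 2.74 and 2.22 CPM in RO-3066, and 4.12, 1.79, 1.94 and 1.70 CPM in DMSO. Its highest class was at 0.385-fold the lowest in RO-3066 (0.274 to 0.535) and at 0.412-fold in DMSO (0.317 to 0.533). These levels were too low for the counts that follow. Hmox1 was also higher in cells of few UMIs, as given below, and this was not separated from its fall with proliferation genes. Among the 9 members with a mean of at least 5 CPM, 2 (Tfrc and Cpox) were at least 1.5-fold higher and 2 (Ftl1 and Blvrb) lower in the highest than in the lowest RO-3066 class, where 14.2% of all genes were higher and 2.97% lower. In DMSO none of those 9 passed 1.5-fold, where 5.85% of all genes were higher and 1.78% lower. The weighting of cells bears on this: when cells counted equally whatever their depth, 1 member was higher and 0 were lower in RO-3066. Neither Ftl1 nor Blvrb was then 1.5-fold lower, so their counts rest on the weight of deep cells.

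**Figure D4:**
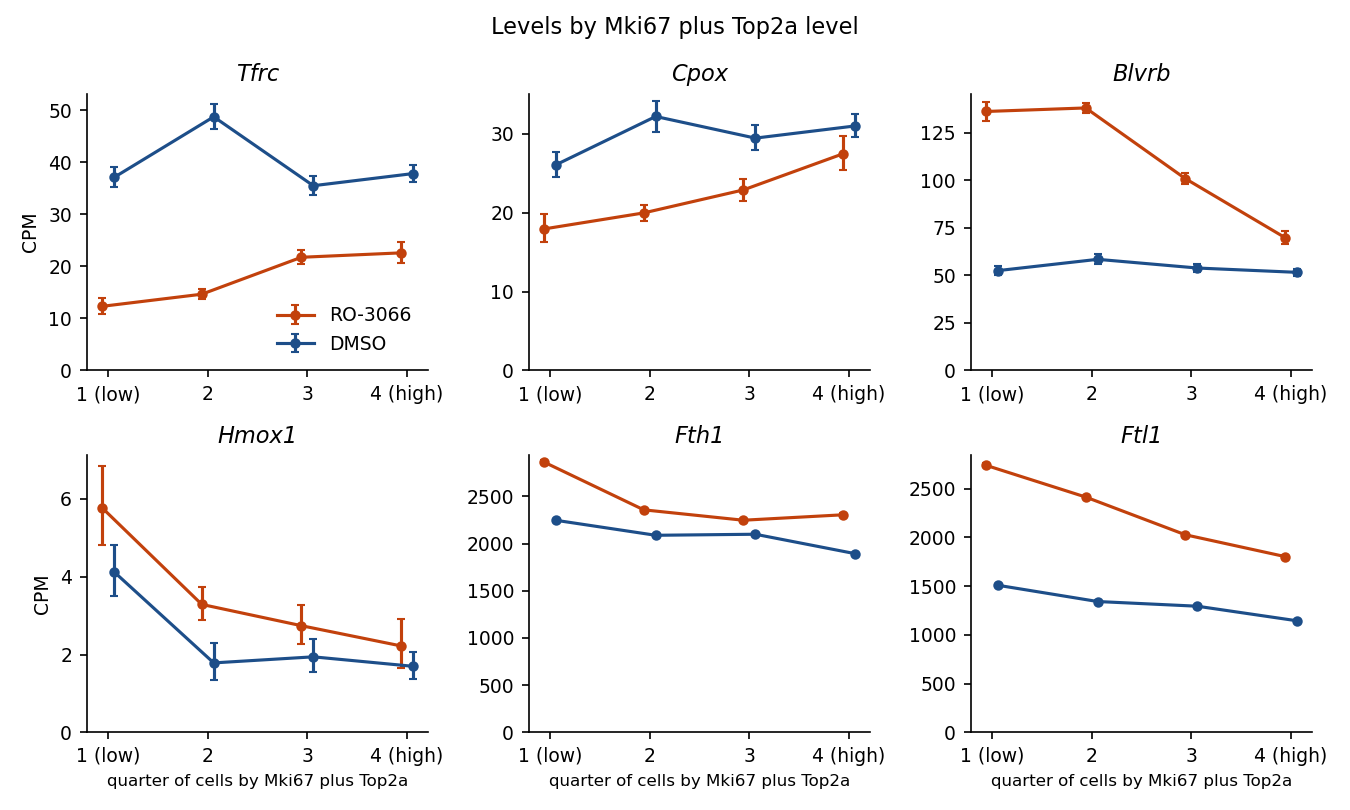
Each panel plots the level of a gene in CPM over the 4 classes of cells from low to high Mki67 plus Top2a level, in RO-3066 and in DMSO, with bars for 95% counting intervals. Blvrb declines to 69.9 CPM in the highest RO-3066 class, and Tfrc reaches 22.6 CPM there.

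Joining both axes showed where the extremes sat. Among cells of the highest Pf4 class, Blvrb had 248, 191, 152 and 96.3 CPM from low to high Mki67 plus Top2a in RO-3066, and 72.3, 74.9, 67.8 and 67.5 CPM in DMSO. Tfrc in the same cells had 12.3, 16.9, 28.2 and 35.6 CPM in RO-3066 and 57.1, 68.4, 48.0 and 55.8 CPM in DMSO. High Pf4 with low proliferation genes was thus the class with the most Blvrb in RO-3066, and there Tfrc was as low as in cells of low Pf4 with few proliferation UMIs (12.3 CPM). The RO-3066 classes at the corners were small, with 96 cells at low and 80 at high Mki67 plus Top2a.

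UMIs per cell, which also depend on sequencing depth, moved with both results. Cell size itself was not measured. Cells of over 40000 UMIs were 41.7% of RO-3066 and 11.9% of DMSO cells. Tfrc had 16.2, 14.9 and 18.6 CPM in RO-3066 cells of under 15000, 15000 to 40000 and over 40000 UMIs, and 11.2, 28.4 and 64.8 CPM in DMSO cells. The ratio was 0.525 (0.484 to 0.569) in the middle band and 0.287 (0.272 to 0.303) in the top band. Among cells of under 15000 UMIs, 355 in RO-3066 and 449 in DMSO, it was 1.45 (0.998 to 2.11). Those cells were unlike in Mki67 plus Top2a, with 1135 CPM in RO-3066 and 240 CPM in DMSO. The part of this in the turned ratio was not tested. Blvrb had 88.1, 62.4 and 143 CPM in RO-3066 and 49.1, 46.8 and 68.8 CPM in DMSO, so that its ratio in the middle band, 1.33 (1.27 to 1.39), was below 1.5. Within cells of the highest Pf4 class and the middle band, of which there were 59 in RO-3066 and 988 in DMSO, the Blvrb ratio was 1.74 (1.501 to 2.01) and that of Tfrc 0.351 (0.224 to 0.525). Ftl1 was 1.64-fold, 1.72-fold and 1.59-fold higher in the 3 bands. Hmox1 was highest in cells of under 15000 UMIs. From the lowest to the highest band it had 14.6, 4.03 and 2.64 CPM in RO-3066, and 16.01, 2.03 and 1.58 CPM in DMSO. Its ratio was 0.912 (0.638 to 1.294) in the lowest band. It was 1.99 (1.64 to 2.41) in the middle band and 1.68 (1.31 to 2.16) in the top band. The part of cells with few UMIs in the Hmox1 fall with Mki67 plus Top2a was not tested. How far cell size bears on the Blvrb and Tfrc differences was not tested beyond these bands.

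**Figure D5:**
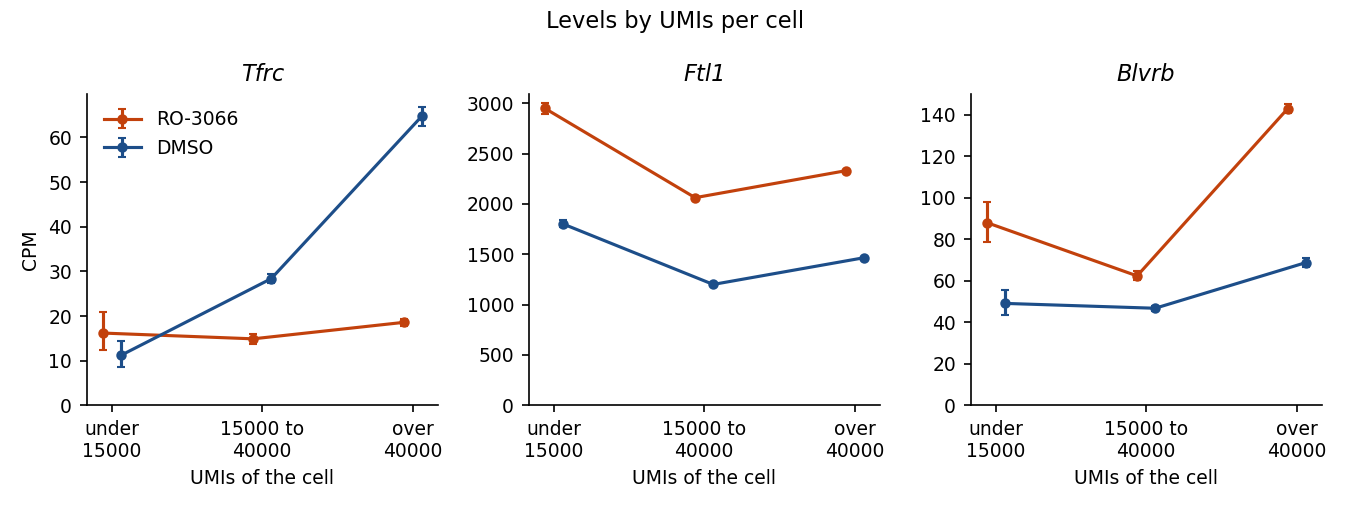
The panels plot Tfrc, Ftl1 and Blvrb in CPM over cells grouped by their UMIs, in RO-3066 and in DMSO, with bars for 95% counting intervals. Tfrc lies at 18.6 CPM in RO-3066 and 64.8 CPM in DMSO among cells of over 40000 UMIs. The order turns among cells of under 15000 UMIs, where the intervals of the levels overlap.

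Markers of red cell precursors were also higher in RO-3066, and Blvrb is among the genes such cells use. The 10 erythroid markers summed to 479 CPM in RO-3066 and 216 CPM in DMSO, of which Hbb-bt, a beta globin, gave 446 and 195 CPM. Of the 10, 3 had a mean of 5 CPM, while Alas2, the first enzyme of heme synthesis in red cells and not among the 10, had 3 UMIs in RO-3066 and 4 in DMSO. The markers ran against Blvrb along Pf4, with 946 CPM in the lowest and 209 CPM in the highest RO-3066 class, and 464 and 51.9 CPM in those of DMSO. Among thinned cells without an erythroid marker UMI, Blvrb had 79.4 CPM in 1117 RO-3066 cells and 49.5 CPM in 3109 DMSO cells, and Tfrc 18.4 and 31.8 CPM. With every cell that had an erythroid marker UMI before thinning left out, 486 RO-3066 and 1802 DMSO cells remained and the log2 ratio of Blvrb was 0.44, under the 1.5-fold limit. This also left out most deep cells, since those that remained had a median of 21856 UMIs in RO-3066 and 22276 in DMSO. Depth of the cells and erythroid UMIs thus cannot be told apart in that value. The part of these cells in the Blvrb difference was not tested further. Macrophages recycle iron and carry much ferritin and Hmox1, and their 10 markers summed to 5.01 CPM in RO-3066 and 2.80 CPM in DMSO, none of them at a mean of 5 CPM. Of these Adgre1 and C1qa were at 0 in both libraries, C1qc had 72 UMIs in RO-3066 and 7 in DMSO, and Cd68, which gave most of the sum, was at 4.03 CPM in RO-3066 and 2.11 CPM in DMSO.

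The other iron and heme genes were counted in the same way. Of 60 such genes 45 had a mean of 5 CPM, of which 1 (Ftl1-ps1, given above) was at least 1.5-fold higher in RO-3066 and 0 were lower, against 4.6% higher and 2.0% lower over all genes compared, and the median log2 ratio was -0.05. With no replicates there was no test behind these counts. Among uptake genes Tfr2, the second transferrin receptor, had 6.68 CPM in RO-3066 and 5.03 CPM in DMSO, and Steap3, which reduces iron in endosomes, 5.07 and 6.26 CPM. Slc22a17, a receptor for the siderophore carrier lipocalin, was below the level set, at 2.30 CPM in RO-3066 and 1.08 CPM in DMSO. The exporter gene Slc40a1 had 0.336 CPM in RO-3066 and 0.0688 CPM in DMSO, and Heph and Cp, oxidases that act with it, had at most 4 UMIs in a library.

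Transcripts for sensing and placing iron lay on both sides, none past 1.5-fold apart from Ftl1-ps1. The iron regulatory protein genes Aco1 and Ireb2 had 11.7 and 22.1 CPM in RO-3066 and 11.4 and 22.4 CPM in DMSO, and Fbxl5, whose product marks Ireb2 protein for decay, was at 0.868-fold (0.823 to 0.917). Pcbp1, an iron chaperone that loads ferritin, was at 0.698-fold, with 251 CPM in RO-3066 and 360 CPM in DMSO, whereas the related Pcbp2 was at 1.04-fold. Ncoa4, the receptor that sends ferritin to the lysosome, was 1.24-fold higher. In the 17 genes of mitochondrial import and iron-sulfur clusters the median was -0.13, with the sulfur donor Nfs1 at 0.753-fold, Fdx2 at 0.805-fold and the co-chaperone Hscb at 1.25-fold.

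The remaining heme genes followed no common direction. Of the 9 synthesis genes compared, 4 were above and 5 below a log2 ratio of 0, among them Urod at 1.26-fold, Uros at 0.828-fold and Clpx, which encodes a chaperone that activates the first enzyme, at 0.772-fold. Hmox2, the constitutive oxygenase, was at 0.884-fold with 73.6 CPM in RO-3066 and 83.2 CPM in DMSO, the heme transporter Slc48a1 at 1.18-fold and the porphyrin exporter Abcg2 at 0.903-fold. Of the genes that control the response to heme, the repressor Bach1 was 1.33-fold and its partner Mafk 1.39-fold higher, and Nfe2l2, which encodes the activator Nrf2, was at 0.816-fold.

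The genes most like each of 4 members were sought over the 16 joint classes of Pf4 and of Mki67 plus Top2a, by the smaller of the Pearson correlations in the 2 libraries, among the 5399 genes with a mean of at least 20 CPM. The classes of a library share its depth and handling. Nearest to Tfrc were Purb (r of 0.895 in RO-3066 and 0.971 in DMSO), Cdc42se1, Larp1b, Trappc10 and Eif4g2. Nearest to Blvrb were Rsu1 (0.964 in both), Tesc, Smap1, Fcer1g and Tceal8, and of these Tesc had 43.7 CPM in RO-3066 and 14.3 CPM in DMSO. Nearest to Fth1 were Itm2b (0.910 and 0.945), Pfdn5, Tsen34, H2-D1 and Hsbp1. For Hmox1, which has few UMIs, the values were lower, led by Map1lc3b (0.912 and 0.728), followed by H3f3a, Ndfip1, Rpl23 and Ier3.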

How the data were processed

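The authors deposited, for each of the 2 libraries, a matrix of raw counts of UMIs per gene and barcode. The submitters' processing notes name Cell Ranger 5.0.1 and mm10, while the matrix header names Cell Ranger 7.1.0. No source used here gives the alignment settings. Barcodes with at least 1000 UMIs, 500 genes and at most 10% mitochondrial UMIs were kept, and 115 RO-3066 and 301 DMSO barcodes scored as doublets by simulated neighbours were left out. The kept cells held 163701620 UMIs in RO-3066 and 174344341 in DMSO. UMIs were summed over the cells of a library or class and scaled to CPM. Log2 ratios used CPM plus 1, and genes with a mean of at least 5 CPM were counted at 1.5-fold. Ratios have exact conditional Poisson intervals and shares exact Clopper-Pearson intervals, all at 95% and for counting error only. The calculation was tested on simulated data. With 1 library per treatment no test across samples was possible. The members and lists were chosen with earlier results of these data known. Named genes are the members, the pathway genes past 1.5-fold or with the 3 largest log2 ratios in a role, and the 5 most alike genes of 4 members. Beyond these, marker genes, Alas2, Slc40a1, Heph, Cp, the values of Tesc and 3 Nrf2 targets were chosen after their values were seen. Tools were pandas 2.3.3, scipy 1.17.1, numpy 2.4.6 and Python 3.11.15. Alternatives covered scaling, thinning, filters, UMIs per cell, erythroid cells and class limits.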

Additional observations from a re-analysis of the deposited data

How the results depend on the processing

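Over 15 alternatives the log2 ratio of RO-3066 over DMSO stayed past 1.5-fold for Tfrc (-1.13 to -0.81) and Ftl1 (0.72 to 0.81). Blvrb ranged from 0.41 to 1.13 and was past it in 13, with 0.41 in cells of 15000 to 40000 UMIs and 0.44 without cells with an erythroid marker UMI. Hmox1, under the level for counting, ranged from 0.19 to 0.95, with 0.73 and 0.95 in the same 2 settings. In both of those settings 1 member was higher and 1 other pathway gene lower. Of the other pathway genes 2 were higher with cells thinned to 10000 UMIs and with a minimum mean of 1 CPM. Blvra turned to -0.048 thinned, -0.12 in cells of 15000 to 40000 UMIs and -0.20 without erythroid marker cells, where Slc11a2 turned to -0.039. Without thinning 7 members had a higher share of cells in RO-3066, and the share differences in percentage points turned to -0.162 for Ftl1, 7.42 for Alas1, 3.43 for Cpox and 6.71 for Blvra. At 5000 UMIs Blvra turned to 0.753. Along Mki67 plus Top2a in RO-3066, 1 member was lower with 3 classes in place of 4, with limits set within each library and with classes from thinned cells, and 0 with equal weight per cell. In the last 2 settings 1 was higher. With equal weight Slc11a2 turned to -0.072 in RO-3066. In DMSO Tfrc turned to -0.087 with 3 classes, -0.030 with thinned classes and -0.036 with equal weight, Slc11a2 to -0.074 with 3 classes and -0.043 with thinned classes, and Fech to 0.050 with thinned classes. The cause was not tested. No paired analysis was possible because each treatment had 1 library, and no replicate could be left out. Depth limits Hmox1 most, and a gene at under 3 UMIs, 0.0183 CPM in RO-3066 and 0.0172 CPM in DMSO, cannot be told from absent.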

Other observations

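Tfrc and Blvrb moved together over the 16 joint classes of Pf4 and of Mki67 plus Top2a in DMSO but not in RO-3066. Their Pearson correlation was 0.07 in RO-3066 and 0.96 in DMSO, a description of 16 classes of 1 library each, which share depth and handling. Cpox followed Tfrc in both libraries, with 0.76 in RO-3066 and 0.92 in DMSO, and ran against Fth1, with -0.81 and -0.84. The DMSO correlations of Tfrc with Blvrb and with Cpox were not separated from the climb of these genes with Pf4 given above.

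Among RO-3066 cells thinned to 10000 UMIs, 6.77% of 133 cells with a Hmox1 UMI also had a Tfrc UMI (3.14 to 12.5), against 14.7% of 3426 cells without one (13.5 to 15.9). In DMSO the shares were 17.8% of 146 cells (12.0 to 24.99) and 23.7% of 5605 cells (22.5 to 24.8), with intervals that overlap. The cells are of 1 library each, and the difference between the libraries was not tested.

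Of 18 targets of the activator Nrf2, which include enzymes that guard against oxidants, 16 had a mean of 5 CPM, 3 were at least 1.5-fold higher in RO-3066 and 0 lower, against 4.6% higher and 2.0% lower over all genes compared. The median log2 ratio was 0.10, and no test stands behind the counts. Named after their values were seen, these 3 were Me1 with 12.0 CPM in RO-3066 and 4.86 CPM in DMSO, Abcc1 with 70.5 and 41.1 CPM, and Srxn1 with 18.2 and 11.5 CPM.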
